A study of Macaca mulatta with 24 samples.

Results

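A set of 10 activity-induced immediate early genes was followed across the nucleus accumbens core (NAcc) of male rhesus macaques: EGR1, EGR3, EGR4, FOS, FOSB, JUNB, NPAS4, NR4A1, ARC and DUSP1. They were taken by symbol from the expression table, which listed all 10 members among 17208 gene rows. All 10 reached a mean of 1 TPM (a relative transcript level scaled for transcript length and library size, the unit in which the normalized values were read) over the 24 animals, as did 13637 genes in all, and 9 of the 10 reached 10 TPM. The animals were 8 controls, 8 low or binge drinkers (LD*), and 8 heavy drinkers (HD*), the last made up of 4 heavy (HD) and 4 very heavy (VHD) drinkers. All were unrelated adults trained on operant panels and induced to drink by schedule-induced polydipsia, after which the drinkers had a year of daily open access to ethanol beside water. Controls went through the same routine with water on both spouts and a maltose dextrin solution to match calories. Ethanol intake averaged 1.58 ± 0.53 g/kg per day in LD* (SD, n = 8), 2.92 ± 0.16 in HD (n = 4) and 3.37 ± 0.29 in VHD (n = 4). The tissue was a small circular piece cut from within the core out of a frozen coronal block, collected under ketamine and isoflurane without imposed abstinence, so neurons, glia and vessels were measured together, and every animal, controls included, was anesthetized before collection. Cohort and drinking group were only partly crossed. Cohort 4 gave 2 LD* animals, and cohort 5 gave 3 controls, 2 HD and 2 VHD. Cohort 7a gave 2 controls, 3 LD*, 2 HD and 2 VHD, and cohort 7b gave 3 controls and 3 LD*.

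Immediate early genes are transcribed within minutes of synaptic activity, without new protein synthesis, when calcium entry and kinase signalling act on transcription factors already bound at their promoters, such as SRF, ELK1 and CREB. Most encode transcription factors that carry the response to slower target genes, while a few act at the synapse or shut the signalling off. In striatal projection neurons they are driven by glutamate and by dopamine acting through the D1 receptor, and their basal level is used as a readout of recent neuronal activity. The zinc finger factors EGR1, EGR3 and EGR4 bind related GC-rich sites. FOS, FOSB and JUNB are parts of the AP-1 dimer. NPAS4 is a neuronal basic helix-loop-helix factor induced by calcium, and NR4A1 is an orphan nuclear receptor. ARC is a synaptic effector that promotes the removal of AMPA receptors, and DUSP1 is a phosphatase that inactivates MAP kinases.

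JUNB had the highest mean level over the 24 animals, at 71.5 ± 27.9 TPM (SD, n = 24), followed by EGR1 at 63.6 ± 34.5 and EGR3 at 62.0 ± 26.0. EGR4 averaged 41.7 ± 19.9 TPM and NR4A1 34.7 ± 16.8. ARC at 20.1 ± 9.10, DUSP1 at 19.1 ± 6.0, FOS at 15.5 ± 5.77 and FOSB at 12.7 ± 7.02 formed a lower tier. Neighbours in this order overlapped within 1 SD, apart from the last step down to NPAS4 at 2.09 ± 1.16 TPM. FOS, the best known of the family, was a low transcript here next to JUNB and EGR1.

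The members varied among animals more than most genes did. The SD of log2(TPM + 1) was 0.94 for EGR3, larger than that of 98.6% of the 13637 genes, and 0.40 for DUSP1, larger than that of 71.2%. The median SD of all genes was 0.32. EGR3 ranged 30.2-fold from 3.67 to 111 TPM, FOSB 19.0-fold from 1.42 to 26.9 TPM, and EGR4 16.4-fold from 4.49 to 73.4 TPM. All 3 of these lowest values came from the same animal, control replicate 6. The narrowest ranges were those of DUSP1, 3.24-fold, and JUNB, 3.87-fold.

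Control replicate 6, of cohort 7b, stood apart in its tissue. The markers of striatal projection neurons, the GABA neurons that make up most of the accumbens (12 of 12 markers measured, among them PPP1R1B, DRD1, DRD2 and ADORA2A), were combined as the mean of their centred log2(TPM + 1) values, written below as the striatal neuron score. That score was -3.09 in control replicate 6 and between -1.09 and 0.98 in the other 23 animals. Its DRD1 level, 8.14 TPM against a mean of 145 TPM over all animals, was the lowest of the series. The oligodendrocyte score of the same animal, 1.63, was the highest. Its pan-neuronal score, made the same way from 8 markers, was 0.46 and within the range of the other animals (-0.98 to 0.57). Cortical excitatory markers were also uneven, with a summed level of 1.66 to 872 TPM in LD* and 1.89 to 414 TPM in controls. Striatal markers were otherwise abundant in every group, with PPP1R1B (DARPP-32) averaging 2293 TPM in controls, 2505 TPM in LD* and 2693 TPM in HD*. The comparisons with controls, the test between cohorts and the correlations of the members with each other and with the striatal neuron score are therefore also given without control replicate 6. A low striatal neuron score could mean, among other things, fewer such neurons in the piece or less RNA in each, and bulk tissue cannot tell these apart. Why this animal's score was low was not tested.

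**Figure D1:**
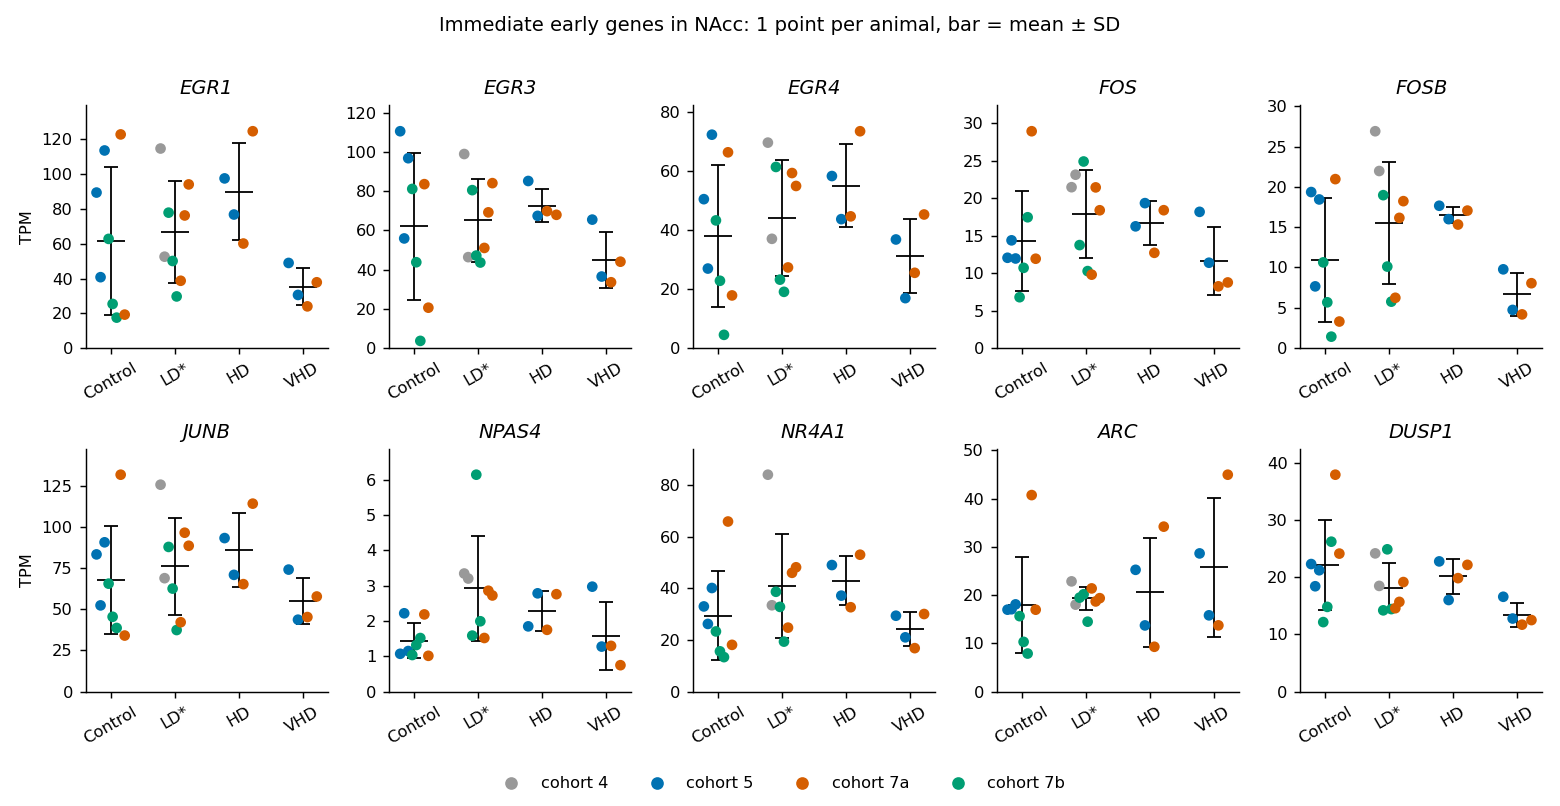
Level of each of the 10 immediate early genes (TPM, linear axis from 0) in controls, LD*, HD and VHD animals. Each point is 1 animal coloured by cohort, and the bars are mean ± SD (n = 8, 8, 4 and 4); the HD and VHD animals do not overlap for EGR1, EGR3, FOSB and NR4A1, while controls span nearly the whole range of most genes.

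The first question was whether chronic drinking shifted these genes from their level in controls. HD* animals and controls overlapped widely: EGR1 ran from 17.5 to 123 TPM in controls (median 51.8) and from 24 to 125 TPM in HD* (median 54.5). JUNB ran from 34.0 to 132 TPM in controls (median 59.0) and from 43.7 to 114 TPM in HD* (median 68.1). FOS ran from 6.79 to 29.0 TPM in controls (median 12.0) and from 8.25 to 19.4 TPM in HD* (median 14.5). No group stood above the other for any of these 3 genes. Of the 10 estimates 9 were above 0 and 1 (DUSP1) below, with a median of 0.25 on the log2(TPM + 1) scale beside -0.12 over all genes, but none passed the test. By limma with Benjamini-Hochberg adjustment 0 of the 10 members and 0 of 13637 genes (0%) had an adjusted p under 0.05, and 775 genes but no member had an unadjusted p under 0.05. The 95% intervals were wide, from -0.66 to 1.02 for EGR1 and from -0.43 to 0.68 for JUNB, and a difference of 1 log2 unit lies inside that of EGR1. DUSP1 had the smallest p of the members, 0.077 unadjusted (adjusted p = 0.71, limma), with 22.2 ± 7.92 TPM in controls and 16.8 ± 4.39 TPM in HD* (SD, n = 8 each) and a log2 difference of -0.35 (SE 0.19).

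TMM rescaling (trimmed mean of M-values, which equalises libraries on their central genes) moved the median of all genes by 0.12 and left 9 members above 0. The direction of these estimates rested on control replicate 6 and on the cohorts. Without that animal 6 members were higher and 4 lower in HD*, with a median of 0.043, and EGR3 moved from 0.32 to -0.16, EGR1 from 0.18 to -0.024 and FOSB from 0.27 to -0.010. Within cohort 5 the HD* animals lay below their own controls for EGR1 (-0.36 on the log2 scale, exact permutation p = 0.57), EGR3 (-0.46, p = 0.34) and EGR4 (-0.37, p = 0.57), with 4 HD* animals against 3 controls. Within cohort 7a, with 4 against 2, the differences were 0.061 for EGR1, 0.30 for EGR3 and 0.34 for EGR4, and the exact p values were 0.93, 0.80 and 0.80. DUSP1 differed by -0.29 in cohort 5 (exact p = 0.23) and by -0.88 in cohort 7a (exact p = 0.13). The interaction between drinking and cohort gave 0 of 13637 genes (0%) at an adjusted p under 0.05 by limma, with 294 genes at an unadjusted p under 0.05. No member was among them. FOS had the largest such difference between cohorts, at -0.97 (SE 0.48, unadjusted p = 0.063, adjusted p = 1.00, limma), with means of 16.3 TPM in HD* and 12.8 TPM in controls of cohort 5 and of 12.0 and 20.4 TPM in cohort 7a.

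In LD* animals against the same controls 9 of 10 estimates were again above 0 and DUSP1 was below, with a median of 0.38 beside -0.025 over all genes. By limma 0 of 13637 genes (0%) passed the adjusted threshold, and 1 of the 10 members, NPAS4, had an unadjusted p under 0.05, as did 387 genes (2.84%). NPAS4 lay between 1.52 and 6.14 TPM in LD* (median 2.79) and between 1.01 and 2.22 TPM in controls (median 1.23). The 2 groups overlapped only from 1.52 to 2.22 TPM. The difference was 0.63 on the log2 scale (SE 0.20, 95% interval 0.23 to 1.04, unadjusted p = 0.0037, adjusted p = 1.00, limma), and the p of NPAS4 ranked 18 among all genes. LD* replicate 4 held the highest value, 6.14 TPM, and that animal also had the highest cortical excitatory score, 4.17. Over the 24 animals NPAS4 had an r of 0.53 with that score (adjusted permutation p = 0.024) and a rho of 0.28 (adjusted permutation p = 0.29). The r was 0.33 without the 2 animals farthest from the median score, and the part of that score in the difference was not tested. Without LD* replicate 4 the difference was 0.50 (unadjusted p = 0.011, limma), and over the leave-one-out fits it lay between 0.50 and 0.71. Within cohorts NPAS4 was 2.36 against 1.60 TPM in cohort 7a (3 LD* and 2 controls, exact p = 0.40) and 3.24 against 1.29 TPM in cohort 7b (3 against 3, exact p = 0.10, the smallest that 3 against 3 allows). Without control replicate 6, 8 members were higher and 2 lower, the median fell to 0.12, EGR3 went to -0.0047, and NPAS4 stayed at 0.64.

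HD* and LD* did not separate either: 9 members were lower and 1 (ARC) higher in HD*, with a median of -0.16 beside -0.084 over all genes, and 0 of the 10 members and 0 of 13637 genes (0%) passed by limma, with 147 genes at an unadjusted p under 0.05 and no member among them. NPAS4 came nearest, at -0.40 (SE 0.20, unadjusted p = 0.056, adjusted p = 0.94), with 2.92 ± 1.48 TPM in LD* and 1.93 ± 0.83 TPM in HD* (SD, n = 8 each). Leaving out LD* replicate 1, which had the highest JUNB and NR4A1 of its group, gave 3 members higher and 7 lower, and leaving out VHD replicate 3 gave 4 and 6. HD*, LD* and control comparisons share animals, so their estimates are not independent of each other.

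The HD* group was not uniform. The 4 HD animals had EGR1 at 97.6, 76.8, 60.1 and 125 TPM, and the 4 VHD animals had 49.0, 30.6, 24 and 37.8 TPM. Every HD animal was above every VHD animal, and the HD mean, 89.8 TPM, was 2.54 times the VHD mean of 35.3 TPM. FOSB stood at 17.7, 16, 15.3 and 17.1 TPM in HD and at 9.77, 4.74, 4.18 and 8.05 TPM in VHD, again without overlap. EGR3 stood at 85.2, 67.5, 69.9 and 68.0 TPM in HD and at 65.5, 36.5, 33.6 and 44.1 TPM in VHD. The lowest HD value was only slightly above the highest VHD value for EGR3, but NR4A1, the last of the 4 genes without overlap, showed a similar narrow gap, at 49.1, 37.2, 32.7 and 53.1 TPM against 29.4, 21, 16.8 and 30.1 TPM.

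By limma on the 8 animals EGR1 was lower in VHD, with a VHD minus HD difference of -1.32 on the log2(TPM + 1) scale (SE 0.25, adjusted p = 0.0085), as was FOSB, at -1.25 (SE 0.25, adjusted p = 0.0096). NR4A1 was also lower, at -0.81 (SE 0.22, adjusted p = 0.032), and so was EGR3, at -0.72 (SE 0.20, adjusted p = 0.032). These 4 of 10 members stand beside 1997 of 13637 genes called in this comparison (14.6%), of which 1556 were lower in VHD. For the same 4 genes an exact two-sided permutation test on the 8 animals gave p = 0.029, the smallest that 4 against 4 allows, and all HD animals lay above all VHD animals for 4 of 10 members and for 2445 genes (17.9%). At an unadjusted p under 0.05 the count was 7 of 10 members beside 32.7% of genes, all 7 lower in VHD beside 24.6% of genes lower at that threshold. EGR4 (55 against 31.1 TPM, adjusted p = 0.055, limma), DUSP1 (20.2 against 13.4 TPM, adjusted p = 0.062) and JUNB (86.0 against 55.2 TPM, adjusted p = 0.066) missed the adjusted threshold narrowly. With cohort in the model EGR4 passed (adjusted p = 0.043, limma), which made 5 members beside 2757 genes called. It also passed with the oligodendrocyte score as a covariate (adjusted p = 0.034, limma), where 2147 genes were called. Among the 9197 genes of at least 10 TPM EGR4 (0.043) and DUSP1 (0.048) both passed, beside 2186 genes called. FOS (16.7 against 11.7 TPM, adjusted p = 0.16) and NPAS4 (2.28 against 1.57 TPM, adjusted p = 0.30) had 95% intervals that reached 0. ARC went the other way, at 25.2, 13.7, 9.28 and 34.2 TPM in HD and 28.6, 15.8, 13.7 and 44.9 TPM in VHD, with a difference of 0.32 (SE 0.42, adjusted p = 0.62) and overlapping ranges. The members' median difference was -0.67 beside -0.17 over all genes.

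Both cohorts that held HD and VHD animals gave the same sign for each of the 10 members, with 2 animals a group in each. EGR1 differed by -1.14 in cohort 5 and by -1.49 in cohort 7a. EGR1 and FOSB kept an adjusted p under 0.05 in all 8 fits that left out 1 animal, between 0.0052 and 0.039 for EGR1 and between 0.0049 and 0.041 for FOSB. EGR3 lost the call without HD replicates 1, 2, 3 or 4 (adjusted p = 0.090, 0.075, 0.083 and 0.070, limma) and without VHD replicate 3 (0.11). NR4A1 lost it without HD replicates 1, 2 or 4 (0.089, 0.068 and 0.098) and without VHD replicate 3 (0.11). The number of members called ran from 2 to 7 over these fits, with FOS, JUNB and DUSP1 added without VHD replicate 1. The number of genes called was 1094, 681, 607 and 723 without HD replicates 1, 2, 3 and 4. Without VHD replicates 1, 2, 3 and 4 it was 2073, 4651, 476 and 1813. When the animals were rescaled by TMM, which moved the median of all genes by 0.15, EGR1 and FOSB stayed called and EGR3 and NR4A1 did not (adjusted p = 0.11 for each). The same held with no filter on low genes, where 1408 genes were called and the adjusted p was 0.033 for EGR1, 0.030 for FOSB, 0.070 for EGR3 and 0.071 for NR4A1 (limma). With TMM 2650 genes were called and 40.2% of them were higher in VHD, against 22.1% before. In a model of 4 groups over all 24 animals, where the spread of controls and LD* enters, no gene was called and the adjusted p was 0.088 for EGR1 and 0.12 for FOSB.

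The libraries of the 2 groups also differed in make-up. The 10 most abundant genes took 3.79% to 3.96% of all TPM in HD and 4.16% to 5.92% in VHD, without overlap. Genes at 0 numbered 931 to 1511 in VHD, a range that spanned the 1072 to 1200 of HD. VHD replicate 4 had the most of the series. The part of these library traits in the differences was not tested. The striatal neuron score separated the HD and VHD animals too. It lay between 0.58 and 0.84 in HD and between -0.75 and -0.024 in VHD, and the summed level of its 12 markers lay between 9363 and 10954 TPM in HD and between 3550.4 and 6309.6 TPM in VHD. Of the 12 markers 11 were called lower in VHD by limma, as were 3 of 8 pan-neuronal markers, beside 1556 of 13637 genes. TAC1, the striatal marker not called, was at -0.061 (adjusted p = 0.84, limma). Called higher were 2 of 8 astrocyte, 4 of 8 microglial and 1 of 10 oligodendrocyte markers (MBP), beside 441 genes. MAG, another oligodendrocyte marker, was at -0.76 (adjusted p = 0.067, limma). With the score as a covariate no gene was called, the estimates of 8 of the 9 members that had been lower in VHD turned above 0, and EGR1 fell to -0.39 (adjusted p = 0.76, limma). FOSB went to 0.16 and EGR3 to 0.59. Striatal neuron score and group do not overlap in these 8 animals, so drinking category and that score cannot be told apart for these genes. The pan-neuronal score did overlap, at 0.059 to 0.42 in HD and -0.98 to 0.34 in VHD.

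**Figure D2:**
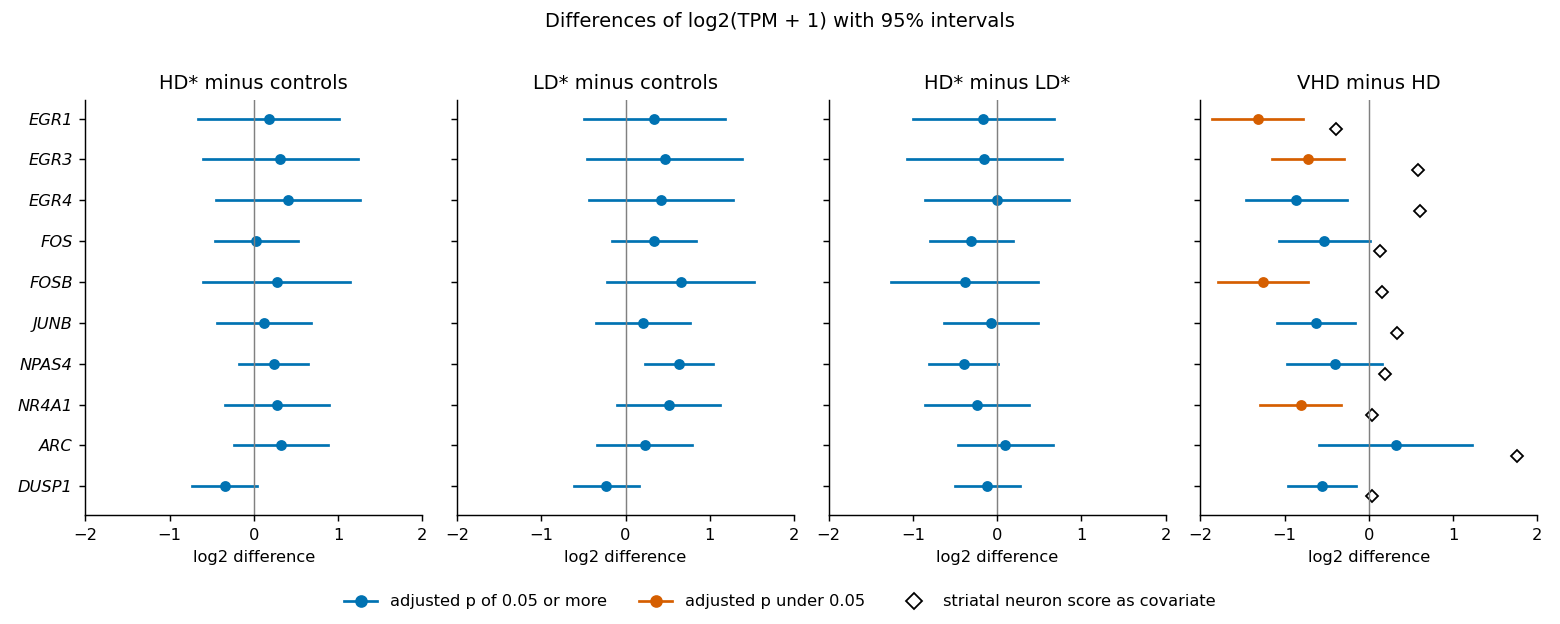
Log2 difference of each gene in 4 comparisons (x axis, difference of mean log2(TPM + 1); y axis, gene), with points for estimates and lines for 95% intervals from limma, orange where the adjusted p was under 0.05. In the VHD against HD panel 4 genes are orange (EGR1, EGR3, FOSB, NR4A1), and open diamonds show the same estimates with the striatal neuron score as a covariate, 9 of them above 0.

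Over all 24 animals the members fell into those that tracked the striatal neuron score and those that did not. EGR3 had a Pearson r of 0.97 with the score (Spearman rho 0.93), EGR4 0.95 (0.84), FOSB 0.88 (0.79), EGR1 0.85 (0.87), NR4A1 0.74 (0.77) and JUNB 0.74 (0.78). For these 6 genes the permutation p of r was 1e-05, the smallest that 100000 resamples can give, and the adjusted p over 70 relations (10 genes by 7 cell scores) was 1e-04 for r and at most 0.00035 for rho. ARC (r 0.40, rho 0.29, adjusted permutation p = 0.13 and 0.28), NPAS4 (0.11, 0.17, adjusted p = 0.72 and 0.55), FOS (0.099, 0.26, adjusted p = 0.79 and 0.32) and DUSP1 (0.014, 0.23, adjusted p = 0.97 and 0.37) did not pass. Without the 2 animals farthest from the median score r was 0.93 for EGR3, 0.89 for EGR4 and EGR1, 0.82 for FOSB, 0.78 for JUNB and 0.71 for NR4A1, and without control replicate 6 alone the median over the 10 members went from 0.74 to 0.78. Without the same 2 animals DUSP1 rose to 0.47, while FOS was at 0.24, ARC at 0.13 and NPAS4 at -0.054. Without control replicate 6 alone DUSP1 was at 0.32. Within cohorts EGR3 kept an r of 0.94 (cohort 5, n = 7), 0.98 (cohort 7a, n = 9) and 0.99 (cohort 7b, n = 6), and EGR1 0.99, 0.91 and 0.84. DUSP1 varied between cohorts, at 0.83, 0.32 and -0.80, as did FOS, at 0.10, 0.66 and -0.48. NPAS4 was at -0.22, 0.80 and -0.070, and ARC at 0.074, 0.060 and 0.77.

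FOS was correlated with the pan-neuronal score (RBFOX3, SNAP25, SYT1 and 5 others): its r was 0.63, with rho 0.67 and adjusted permutation p values of 0.0037 and 0.0028. DUSP1 did likewise with 0.52 and 0.53 (adjusted permutation p = 0.031 for both). NPAS4 reached r 0.48 (adjusted permutation p = 0.046) but its rho of 0.44 did not pass (0.094). Without the 2 farthest animals these r values were 0.52, 0.35 and 0.35. The astrocyte and microglial scores ran the other way for the 6 genes that tracked striatal neurons, with r from -0.76 to -0.61 for astrocytes and from -0.76 to -0.59 for microglia, and 6 of 10 members passed for each score. The oligodendrocyte score passed for 3 members by Pearson and 0 by Spearman, the cortical excitatory score for 2 and 0, and the endothelial and mural score for 0 by both. Blood had too few markers for a score, and HBB averaged 3.73 TPM. Across all 70 relations 26 passed by Pearson and 20 by Spearman. For these scores too the share of all genes that would pass was not counted. These cell scores and the members come from the same libraries, and TPM values share a fixed total.

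**Figure D3:**
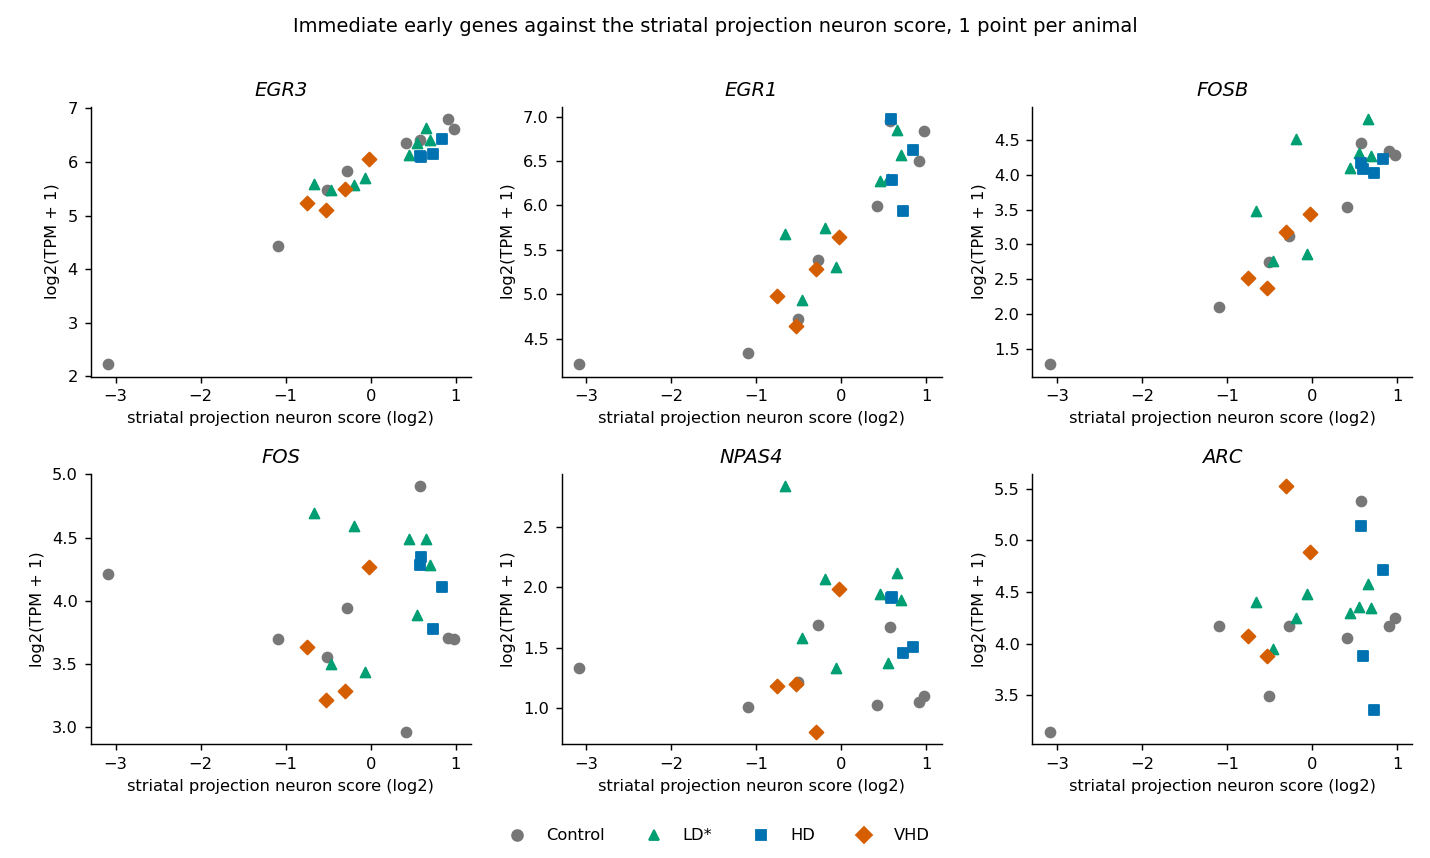
Level of 6 immediate early genes (y axis, log2(TPM + 1)) against the striatal projection neuron score (x axis, mean centred log2(TPM + 1) of 12 markers), 1 point per animal, with shape and colour for the group. EGR3, EGR1 and FOSB rise along the score and control replicate 6 lies at the far left at -3.09, while FOS, NPAS4 and ARC scatter across it.

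The members also moved with each other. Of 45 pairs 44 had a positive r over the 24 animals, with a median of 0.49, and 27 passed at an adjusted permutation p under 0.05 by Pearson and 27 by Spearman. The share of pairs of other genes that would pass was not counted, so whether this is particular to the members was not tested. EGR1 and JUNB were the closest pair (r 0.95, rho 0.94), then JUNB and NR4A1 (0.93, 0.93) and EGR1 and FOSB (0.93, 0.89), each with an adjusted permutation p of 3.2e-05 for r and 3.5e-05 for rho. FOS went most closely with NPAS4 (r 0.80, rho 0.83, adjusted permutation p = 6.0e-05 and 5.6e-05) and with DUSP1 (0.69, 0.67, adjusted p = 0.00050 and 0.0012), and less with its AP-1 relatives FOSB (0.46, 0.57) and JUNB (0.57, 0.61). DUSP1 and EGR3 were the only pair below 0, at -0.029 (rho 0.29), and had an r of 0.32 without control replicate 6. ARC passed by Pearson with EGR1, EGR4, JUNB and NR4A1, highest with NR4A1 at 0.61 (rho 0.65). Without control replicate 6 its r was 0.39 with EGR1 and 0.44 with EGR4 (adjusted permutation p = 0.097 and 0.057). The rho values of these pairs were 0.47 and 0.53 (adjusted permutation p = 0.041 and 0.018). With JUNB and NR4A1 ARC then had r 0.48 and 0.53 (adjusted permutation p = 0.034 and 0.018). Without the 2 animals farthest from the median of the first gene r was 0.94 for EGR1 with JUNB, 0.85 for FOS with NPAS4 and 0.56 for FOS with DUSP1. Within cohorts the median r over the pairs was 0.41 in cohort 5 (38 of 45 positive), 0.79 in cohort 7a (44 of 45) and 0.65 in cohort 7b (33 of 45). Without control replicate 6 it was 0.54, with 28 pairs passing by Pearson and 31 by Spearman, and with cohort means removed it was 0.47, with 23 and 24.

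In a step added after the data were seen, the striatal neuron score was regressed out of each gene and the residuals were permuted. Then 26 pairs passed by Pearson and 26 by Spearman, close to the number before, but with another arrangement. All of EGR3's correlations with EGR1, EGR4, FOSB, JUNB and NR4A1, which had been between 0.71 and 0.91, went to between -0.14 and 0.026, and no pair with EGR3 passed. EGR3 had an r of 0.97 with the score, so the step left little of its variation to correlate with other genes. FOS went from 0.45 to 0.71 with EGR1, from 0.57 to 0.74 with JUNB, from 0.46 to 0.79 with FOSB and from 0.61 to 0.81 with NR4A1. DUSP1 went from 0.36 to 0.67 with EGR1 and from 0.45 to 0.65 with NR4A1. Part of this rise was also seen on leaving out control replicate 6 with no regression. FOS then had r 0.54 with EGR1, 0.63 with JUNB, 0.61 with FOSB and 0.71 with NR4A1. DUSP1 had 0.53 with EGR1 and 0.62 with NR4A1. The regression was not run without that animal. EGR1 with JUNB was at 0.90, JUNB with NR4A1 at 0.85 and FOS with NPAS4 at 0.80. These shifts in r were not tested. After this step EGR1, FOS, FOSB, JUNB, NR4A1 and DUSP1 were correlated in every pairing at an adjusted permutation p under 0.05.

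**Figure D4:**
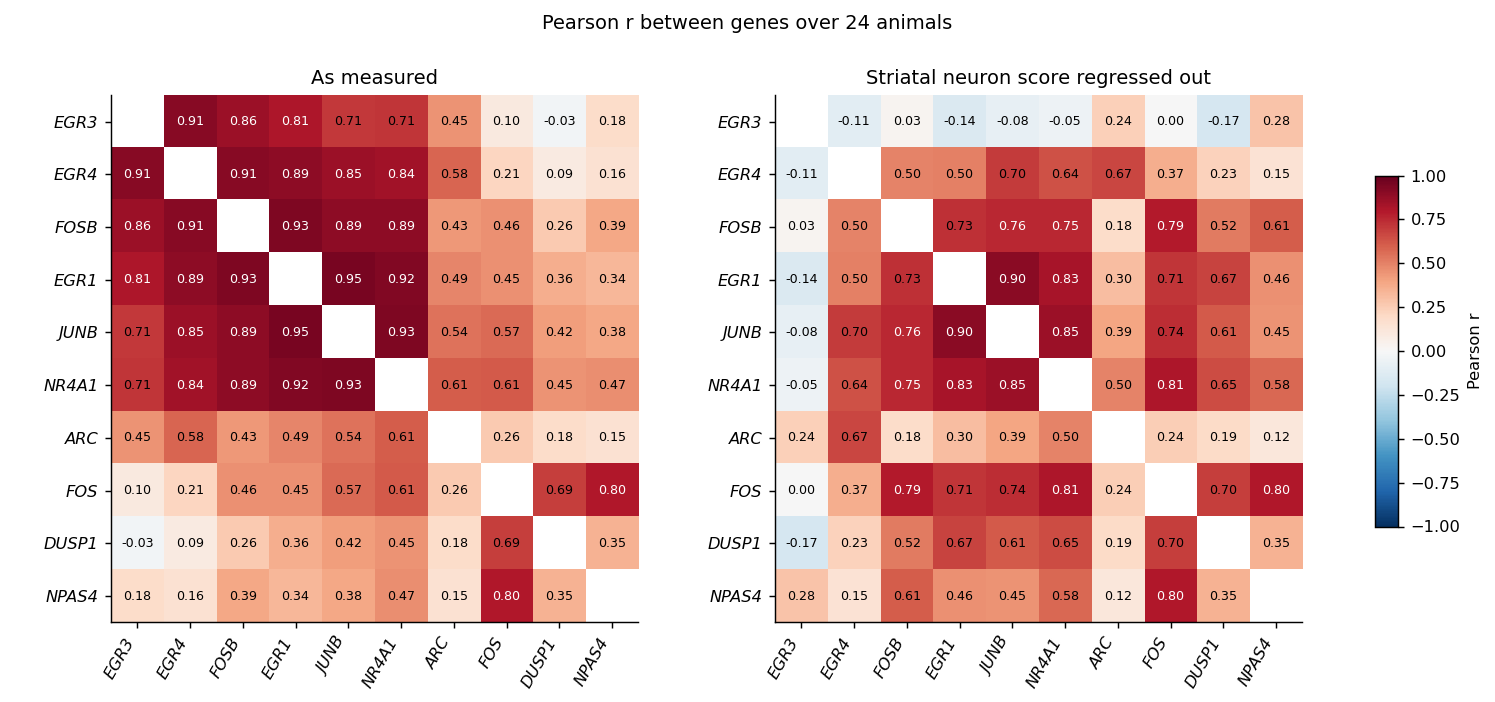
Pearson r between the 10 genes over 24 animals (colour scale from -1 to 1, value printed in each cell) as measured on the left and after regressing out the striatal neuron score on the right. On the left EGR3, EGR4, FOSB, EGR1, JUNB and NR4A1 form a block of r from 0.71 to 0.95. On the right EGR3, which has little variation left (r 0.97 with the score), lies outside the block. FOS is there at 0.71 to 0.81 with EGR1, FOSB, JUNB and NR4A1.

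Among the 16 drinkers the level was also fitted on each animal's own intake within its LD* or HD* group. Of 10 slopes 9 were below 0, with a median of -0.38 log2 units per g/kg beside -0.11 over all genes, and 0 of 13637 genes (0%) passed by limma. FOSB alone had an unadjusted p under 0.05, as did 8.12% of genes, with a slope of -1.01 per g/kg (SE 0.35, 95% interval -1.75 to -0.28, unadjusted p = 0.0095, adjusted p = 0.50). Its slope stayed below 0 without any single animal, between -1.51 and -0.87. ARC had the only slope above 0, 0.19 (SE 0.30). The same HD and VHD animals enter this fit. Between cohorts, with drinking group in the model, 0 of 13637 genes (0%) passed by limma and 1140 had an unadjusted p under 0.05, none of them a member. NR4A1 came nearest (F = 2.53, unadjusted p = 0.083), with 84.1 and 33.5 TPM in the 2 animals of cohort 4. Without control replicate 6 its F was 1.81 (unadjusted p = 0.18, limma) and again 0 genes passed.

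Other genes of the same response were described from lists of their known members. Among 20 further immediate early transcription factors 18 were tested (FOSL1 and JUND averaged 0.38 and 0.40 TPM and were not), and all 18 had estimates below 0 in VHD against HD, with a median of -0.31. Over all genes 34.8% of the estimates in that comparison were above 0, and the median was -0.17. EGR2, the remaining EGR factor, fell by 0.88 on the log2 scale (SE 0.27, adjusted p = 0.049, limma) and BHLHE40, a clock-linked repressor, fell by 1.02 (SE 0.21, adjusted p = 0.011), which made 2 of 18 called, beside 14.6% of all genes. Of the 20 effectors and feedback genes 19 were tested and 2 were called, PLK2, a kinase that weakens active synapses, at -1.15 (SE 0.16, adjusted p = 0.0042) and NAB2, a corepressor of EGR factors that is itself induced by them, at -0.79 (SE 0.16, adjusted p = 0.011). Their median was -0.43. RGS2, the most abundant of that list at 182 TPM, was at -0.40 (SE 0.22, adjusted p = 0.22). Of 10 slower activity-regulated genes 9 were tested (BDNF averaged 0.74 TPM) and 6 were called lower in VHD, beside 1556 of all 13637 genes. VGF (-1.21, SE 0.20, adjusted p = 0.0053), NPTX2 (-1.20, SE 0.25, adjusted p = 0.011) and HOMER1 (-1.01, SE 0.19, adjusted p = 0.0085) were among them. VGF and NPTX2 are secreted neuronal proteins and HOMER1 is a postsynaptic scaffold. SCG2, the most abundant at 760.4 TPM, was at -0.66 (SE 0.27, adjusted p = 0.12). MAPK3, at 404 TPM the most abundant of 16 upstream kinases and transcription factors, was at 0.20 (SE 0.13, adjusted p = 0.29). Of these 16, 7 were called lower, beside the same 1556 of 13637 genes. MAP2K1 (-0.89) and MEF2D (-0.95) were among the 7, with adjusted p values of 0.0088 and 0.0064 (limma). In all 4 lists the VHD animals had the lower value for every called gene, and the part of the striatal neuron score, which separates the same animals, was not tested for them. In HD* or LD* against controls and HD* against LD*, 0 of the 62 tested genes of the 4 lists passed by limma. Only ELK4 had an unadjusted p under 0.05, in HD* against controls, where its difference was -0.30 (adjusted p = 0.71, limma). Without control replicate 6 the counts were the same in all 3 comparisons and ELK4 was at -0.31 (adjusted p = 0.75, limma).

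The genes outside the members whose pattern over the 24 animals was most like the members' mean log2 level were DUSP5 (Pearson r 0.94), DUSP14 (0.93), SYT6 (0.92), FOSL2 (0.92), PRMT8 (0.92), NR4A3 (0.91), DUSP2 (0.91), MCU (0.91), WBSCR17 (0.91) and CELF4 (0.91). Of these 10, 4 belong to the lists above: FOSL2, an AP-1 subunit, NR4A3, the third NR4A receptor, and the MAP kinase phosphatases DUSP2 and DUSP5. The other 6 are on none of these lists and include SYT6, a synaptotagmin, MCU, the pore of the mitochondrial calcium uniporter, and CELF4, an RNA-binding protein of neurons. The median r over the 13623 other genes was 0.14, and 454 (3.33%) exceeded 0.8. Within the members NR4A1 followed the mean of the other 9 most closely (r 0.96), then EGR1 and JUNB (0.94 each), FOSB (0.93), EGR4 (0.86), EGR3 (0.75), ARC (0.53), FOS (0.51), NPAS4 (0.40) and DUSP1 (0.33).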

How the data were processed

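Libraries were polyA-selected mRNA from NAcc. The authors aligned reads to the MacaM rhesus assembly with STAR 2.5.2b, counted them per gene with HTSeq 0.6.1p1 and, for their own tests, used DESeq2. The deposited table is described only as normalized. It was read as TPM, since every animal's values add up to nearly the same total with no common step among low values, and the authors apply a TPM threshold. How the authors made it is not given in the sources used here, so sequencing depth and counting error are not recoverable and no count model was used. Sources differ on strand and read pairing, so a gene and an overlapping antisense transcript cannot be told apart. Groups, cohorts and intakes came from the labels, each library is a separate animal, and no animal was dropped or imputed. The members, lists and tests were chosen with earlier results of these data known. The 13637 genes whose mean reached 1 TPM were fitted as log2(TPM + 1) with limma 3.58.1 (empirical Bayes with a trend, R 4.3.3) and Benjamini-Hochberg adjustment. The pseudocount shrinks differences of low genes such as NPAS4. Controls, LD* and HD* shared 1 model, while VHD against HD used those 8 animals only. Correlations used 100000 permutations, and single values exact permutation tests (scipy 1.17.1), all two-sided. Scripts were tested on simulated data. Alternatives included other pseudocounts (0.1, 8), filters (none, 10 TPM), TMM scaling, cohort or cell scores as covariates, and leaving out each animal. Named genes were all 10 members, from each list those past the threshold and the most abundant, and the 10 most alike genes. Of the marker lists, PECAM1 and the alpha globin genes were not among the table's symbols, leaving 2 of 5 blood markers.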

Additional observations from a re-analysis of the deposited data

Results flagged for a closer look

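Within 50 groups checked (10 genes in controls, LD*, HD*, HD and VHD), 4 held an animal set apart from the others of its group by Dixon's criterion, where chance gives about 1 in 20. EGR3 in HD replicate 1 was 85.2 TPM against 67.5 to 69.9 TPM in the other HD animals. NPAS4 in LD* replicate 4 was 6.14 TPM against 1.52 to 3.34 TPM in the other LD* animals. NR4A1 in LD* replicate 1 was 84.1 TPM against 19.4 to 48.2 TPM. ARC in control replicate 7 was 40.7 TPM against 7.87 to 18.1 TPM.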

How the results depend on the processing

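Of 1913 alternative estimates for single members, 1811 kept their side of the threshold and, where they have a sign, their direction. Another 18 lost and 9 gained the call, and 75 changed sign, 39 of them on leaving out 1 animal. The F values of the test between cohorts are among the 1913 and have no sign, so they could not change it. The cause of these changes was not tested. For VHD against HD the 1997 genes called became 0 with the striatal neuron score as covariate, 0 with all 24 animals in 4 groups, and 476 to 4651 on leaving out 1 animal. With that covariate the members' differences became 0.59 for EGR3, 0.61 for EGR4, 0.13 for FOS, 0.16 for FOSB, 0.34 for JUNB, 0.19 for NPAS4, 0.038 for NR4A1 and 0.039 for DUSP1. The same covariate was put into the other fits, each on its own animals. There the HD* against control differences became -0.15 for EGR1, -0.098 for EGR3, -0.088 for FOSB and -0.063 for JUNB, and the intake slope of EGR3 became 0.13. The HD* minus control difference of cohort 7a minus that of cohort 5 is written below as the cohort difference. It became -0.52 for EGR1, -0.0018 for EGR4, -0.39 for FOSB and -0.48 for JUNB. With cohort as covariate, HD* against controls became -0.11 for EGR1, -0.0072 for EGR3, -0.064 for FOS, -0.0057 for FOSB and -0.030 for JUNB, HD* against LD* became -0.097 for ARC, and the intake slope of NPAS4 became 0.081. In cohorts 5 and 7a only, HD* against controls became -0.21 for EGR1, -0.18 for EGR3, -0.053 for EGR4, -0.13 for FOS, -0.16 for FOSB, -0.074 for JUNB and -0.079 for NR4A1. With the oligodendrocyte score as covariate EGR4 in HD* against LD* became 0.10, the intake slope of EGR3 0.0055 and the cohort difference of NR4A1 0.038. TMM turned HD* against LD* to 0.079 for EGR4 and 0.0090 for JUNB.

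Leaving out 1 animal at a time, the signs that changed were within these ranges. HD* against controls ran from -0.024 to 0.37 for EGR1, from -0.16 to 0.50 for EGR3, from -0.094 to 0.18 for FOS and from -0.010 to 0.44 for FOSB. LD* against controls ran from -0.0047 to 0.65 for EGR3. HD* against LD* ran from -0.33 to 0.00053 for EGR1, from -0.15 to 0.16 for EGR4, from -0.21 to 0.039 for JUNB and from -0.057 to 0.25 for ARC. The intake slope of NPAS4 ran from -0.26 to 0.0060. The cohort differences in the HD* effect ran from -0.89 to 1.73 for EGR1, from -0.23 to 1.74 for EGR3, from -0.21 to 1.63 for EGR4, from -0.67 to 1.69 for FOSB, from -0.87 to 1.05 for JUNB, from -1.08 to 0.73 for NR4A1 and from -1.10 to 0.12 for ARC. Genes called ran from 0 to 1 for the intake slope (1 without LD* replicate 2) and from 0 to 14 for the cohort difference (1 without control replicate 2, 14 without control replicate 7), where leaving out an animal can leave 1 in an arm, assumed to vary like the rest. No paired analysis was possible because replicate numbers only name the animals and tie none across groups. Cohort, which several groups share, was used as a covariate instead, and in VHD against HD that fit called 2757 genes.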
